A study of Mus musculus with 12 samples.

Results

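The genes described here make up the core of the MHC class I antigen presentation pathway: the heavy chain genes H2-K1 and H2-D1, the light chain gene B2m, the peptide transporter genes Tap1 and Tap2, tapasin (Tapbp), the immunoproteasome subunits Psmb8, Psmb9 and Psmb10, and the class I transactivator Nlrc5. They were chosen by name for their place in the pathway, with earlier results of these data known. All 10 are among the 47517 rows of the deposited gene table. Of these, 8 passed the filter on low counts and were tested with 17609 genes in all, while Psmb8 and Psmb9 did not pass.

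RNA was sequenced from C57BL/6 mouse embryonic fibroblasts taken at E13.5 and immortalised with SV40 large T antigen. All groups, the controls included, carried floxed alleles of Ssb1 (gene symbol Nabp2) and Ssb2 (Nabp1), 2 genes whose proteins bind single-stranded DNA. The labels write Ssb1 Fl/Fl; Ssb2 Fl/Fl for Cre -ve cells and Ssb1 Fl/F; Ssb2 Fl/Fl for Cre +ve cells, and their protocol text gives homozygous floxed alleles for both. Cells were Cre -ve, or carried RosaCreERT2, a Cre recombinase fused to a mutated oestrogen receptor and driven from the Rosa26 locus, which 4-hydroxytamoxifen (4-OHT) activates. Each genotype was left untreated, given ethanol as the vehicle, or given 4-OHT, the last 2 treatments for 5 days, which makes 6 groups of 2 libraries. Library numbers run from 1 to 12 as in the titles. The series asked which transcripts change when Ssb1 and Ssb2 are lost, and the contrast it was built for sets 4-OHT against the vehicle in Cre-positive cells, with Cre-negative cells as the control for 4-OHT itself. The labels do not tell how many embryos or immortalised lines stand behind each genotype, so the Cre genotype and the line cannot be told apart. They also do not say whether the libraries of a group were separate cultures, and p-values here measure only the spread between libraries, which may be technical.

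MHC class I molecules show peptides from inside the cell to CD8 T cells and natural killer cells. Proteins are cut by the proteasome, of which the immunoproteasome is a form with 3 exchanged catalytic subunits; the peptides enter the endoplasmic reticulum through the Tap1 and Tap2 transporter and are loaded, with the help of tapasin, onto a heavy chain paired with B2m. Transcription of class I genes is driven by Nlrc5, which acts with the RFX complex at the S, X and Y boxes of their promoters, and by interferon and NF-kappa B signals. Fibroblasts are known for a low basal level of the pathway that interferons raise.

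Totals ran from 20201855 to 36367012 counts per library. The targets fell as labelled: Nabp1 and Nabp2 were at 3.40 to 5.09 CPM (counts scaled to the size of the library, with TMM factors) in Cre-positive cells given 4-OHT, against 14.5 to 31.2 in the other 10 libraries. Both were already lower in untreated Cre-positive than in untreated Cre-negative cells, by edgeR's quasi-likelihood test. The log2 difference was -0.74 for Nabp1 (adjusted p = 9.39e-08) and -0.32 for Nabp2 (adjusted p = 0.0017). Without 4-OHT, Nabp1 was at 14.5 to 16.1 CPM in Cre-positive libraries and 24.5 to 27.5 in Cre-negative ones. Of 12 fibroblast markers, 10 passed the filter. The exceptions were Thy1 and Lum, with 10 and 38 counts over all 12 libraries, and Dcn had only 2 to 25 counts per library. The summed level of all 12 markers was 6667 to 7727 CPM in Cre-negative and 8669 to 9458 CPM in Cre-positive libraries. Vim alone was at 3245 to 4126 CPM. Between untreated genotypes, 7 of the 10 tested markers were higher in Cre-positive cells and 2 lower, beside 24.4% and 24.6% of all genes. Mean Postn was 32.5 CPM in untreated Cre-negative and 682 CPM in untreated Cre-positive cells. Markers of antigen-presenting cells and lymphocytes summed to 5.99 to 9.09 CPM, with 4 to 10 of the 18 markers at 0 in a library. The pan-leukocyte gene Ptprc had at most 3 counts in a library, and Tyrobp, a signalling adaptor of myeloid and natural killer cells, had 0 counts in all 12. Others in the list were detected: the lysosomal gene Cd68 had 54 to 125 counts per library, Cd74, the class II invariant chain, 5 to 89, and H2-DMb1, a class II peptide-loading chain, 4 to 40. H2-DMb1 rose by 1.51 with 4-OHT against ethanol in Cre-positive cells (adjusted p = 0.00833), the contrast in which 7 members rose, and the part of such cells in the members' values was not tested. These are bulk samples, in which fewer cells expressing a gene and less RNA per cell cannot be told apart.

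Promoter sequences of H2-K1, H2-D1, B2m and Tap1 are shown first. These 4 members were all lower in Cre-positive than in Cre-negative cells given 4-OHT, where 30.2% of all tested genes were called lower and 30.5% higher. The short runs of letters found in all 4 promoters, TGACG and CCAAT on either strand, are also in 20.8% and 37.4% of RefSeq promoter windows. A link between these letters and the members' levels was not tested. The sequences are from RefSeq (GRCm38.p6) and run 5′ to 3′ on the gene's own strand, and each ends at the last base before a RefSeq transcription start. Capitals mark matches to the letters searched: GGGATTCCC (the core of the kappa B site of enhancer A), GAANNGAAA (the core of the class I interferon response element, which reads TTTCACTTC on the other strand), GAAANNGAA (the core of the interferon-stimulated response element), TGACG (the core of the X2 box) and CCAAT (the Y box, ATTGG on the other strand). No matches overlap each other, and the letters were chosen with the sequences in view.
H2-K1, chr17:34000348-34000477, minus strand: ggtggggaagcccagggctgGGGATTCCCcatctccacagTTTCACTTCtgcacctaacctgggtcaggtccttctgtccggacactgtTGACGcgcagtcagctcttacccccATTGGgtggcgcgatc
H2-D1, chr17:35262894-35263093, plus strand: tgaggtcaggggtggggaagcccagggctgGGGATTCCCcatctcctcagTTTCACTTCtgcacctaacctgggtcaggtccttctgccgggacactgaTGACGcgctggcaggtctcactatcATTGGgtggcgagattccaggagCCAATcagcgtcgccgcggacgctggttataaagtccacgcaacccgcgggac
B2m, chr2:122147537-122147686, plus strand: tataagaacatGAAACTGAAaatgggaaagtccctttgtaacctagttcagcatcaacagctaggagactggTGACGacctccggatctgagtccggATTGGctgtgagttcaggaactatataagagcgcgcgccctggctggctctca
Tap1, chr17:34187331-34187555, plus strand: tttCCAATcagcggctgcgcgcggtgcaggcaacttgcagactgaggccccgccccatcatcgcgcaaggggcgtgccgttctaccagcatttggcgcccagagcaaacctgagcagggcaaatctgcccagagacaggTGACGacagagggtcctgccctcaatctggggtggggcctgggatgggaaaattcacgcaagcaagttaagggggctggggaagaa

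The H2-K1 and H2-D1 promoters held the same elements in the same order, kappa B site, interferon core, X2 core and Y box. From the kappa B match onward, 97 of the 110 H2-K1 bases (88.2%) were identical to those of H2-D1. The 32851 RefSeq promoter windows all ran from 250 bases before to 50 after a start. GGGATTCCC was on either strand in 0.353% of them, which is 116 windows. Of these 116, 2 belong to H2-K1 and 1 each to H2-D1, H2-Q6, H2-Q7 and Irf1, among other genes. H2-Q6 and H2-Q7, other class I heavy chain genes, had only 15 and 11 counts over all 12 libraries. The interferon core GAANNGAAA was in 7.52% of windows and GAAANNGAA in 8.56%. The short letters were common: TGACG was in 20.8% of windows and CCAAT in 37.4%. B2m held GAAANNGAA, an X2 core and a Y box, with no GGGATTCCC. The printed Tap1 stretch is the whole of the 225 bases between the RefSeq starts of Tap1 and Psmb9, which lie head to head. Both genes thus share its TGACG and CCAAT matches. In Tap1 the CCAAT match (-222 to -218) lies upstream of TGACG (-86 to -82). In H2-K1, H2-D1 and B2m a Y box match instead follows the X2 core, so the Tap1 stretch does not repeat their order. Psmb8 held a match to the gamma-activated sequence TTCNNNGAA (8.3% of windows), Tapbp had 2 Y box matches, and Psmb10 held none of these letters in its window. Nlrc5 and Tap2 had no entry. A match is a run of letters and not a measured binding site.

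**Figure D1:**
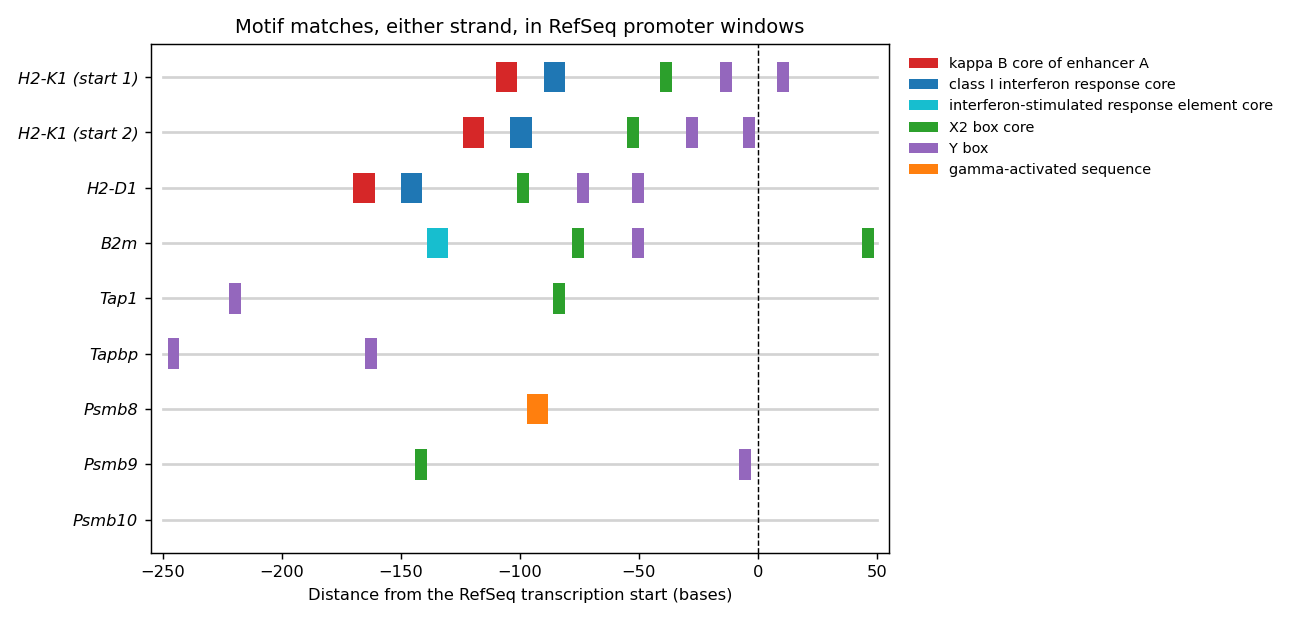
Matches to the searched letters on either strand in the RefSeq promoter windows of 8 of the members. The x axis is the distance from the transcription start in bases, grey lines are the windows, coloured boxes are matches, and H2-K1 has 2 annotated starts; the H2-K1 and H2-D1 rows carry the same elements in the same order.

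H2-K1 and H2-D1 code for the classical heavy chains of this strain, which bind the peptide. H2-K1 (chromosome 17, 33996017 to 34000347, minus strand, GRCm38) was at 28.8 and 30.4 CPM in untreated Cre-negative libraries, 71.8 and 78.0 with ethanol and 97.5 and 99.1 with 4-OHT. In Cre-positive libraries it was at 4.52 and 4.32 CPM untreated, 5.67 and 4.22 with ethanol and 6.57 and 6.56 with 4-OHT. Every Cre-positive library was thus below every Cre-negative one, and the highest group mean was 22.2 times the lowest. How many genes had such a gap over all 12 libraries was not counted. Between single groups of 2 libraries gaps are common. Of all 17609 tested genes, 72.7% did not overlap between the untreated genotypes, in either direction, and 79.6% did not with 4-OHT.

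H2-D1 (chromosome 17, 35262730 to 35267499, plus strand) was likewise lower in every Cre-positive than in any Cre-negative library, over a smaller range. It was at 143.6 and 142.2 CPM in untreated Cre-negative libraries, 223.5 and 228.8 with ethanol and 257.5 and 256.6 with 4-OHT. In Cre-positive libraries the values were 72.0 and 65.9 CPM untreated, 69.4 and 63.2 with ethanol and 83.2 and 76.5 with 4-OHT. Untreated and ethanol-treated Cre-positive libraries overlapped, and the highest group mean was 3.88 times the lowest.

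B2m (chromosome 2, 122147686 to 122153083, plus strand), the light chain that pairs with the H2-K1 and H2-D1 heavy chains, was the most abundant member. Its values were 457.6 and 445.6 CPM in untreated Cre-negative libraries, 671.9 and 695.4 with ethanol and 808.9 and 771.3 with 4-OHT. Cre-positive libraries were at 335.9 and 327.6 CPM untreated, 399.6 and 388.3 with ethanol and 468.5 and 481.4 with 4-OHT. No pair of treatments overlapped within a genotype, and the range over group means was 2.38-fold. In such pairs of treatments, 51% to 69.1% of all tested genes did not overlap.

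The balance between the chains differed between the genotypes. The ratio of H2-D1 to H2-K1, in CPM per kb of exonic sequence, was 5.50 ± 0.255 (SD, n = 2) in untreated Cre-negative cells, 3.44 ± 0.143 with ethanol and 2.98 ± 0.0421 with 4-OHT. In Cre-positive cells it was 17.7 ± 0.550, 15.5 ± 2.20 and 13.9 ± 0.800 in the same order. H2-K1 made up 14.96% to 25.3% of the summed heavy chain level, on the same scale per length, in Cre-negative libraries and 5.23% to 6.996% in Cre-positive ones, so the ranges did not overlap. B2m was 6.73 to 8.13 times the summed heavy chains in Cre-negative and 13.3 to 17.5 times in Cre-positive libraries. These ratios are descriptions and were not tested. Of the 75-base windows of H2-K1 and H2-D1 transcripts, 3.1% and 5.4% also occur in other genes, mostly class I genes, so a small part of the reads could be assigned either way.

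**Figure D2:**
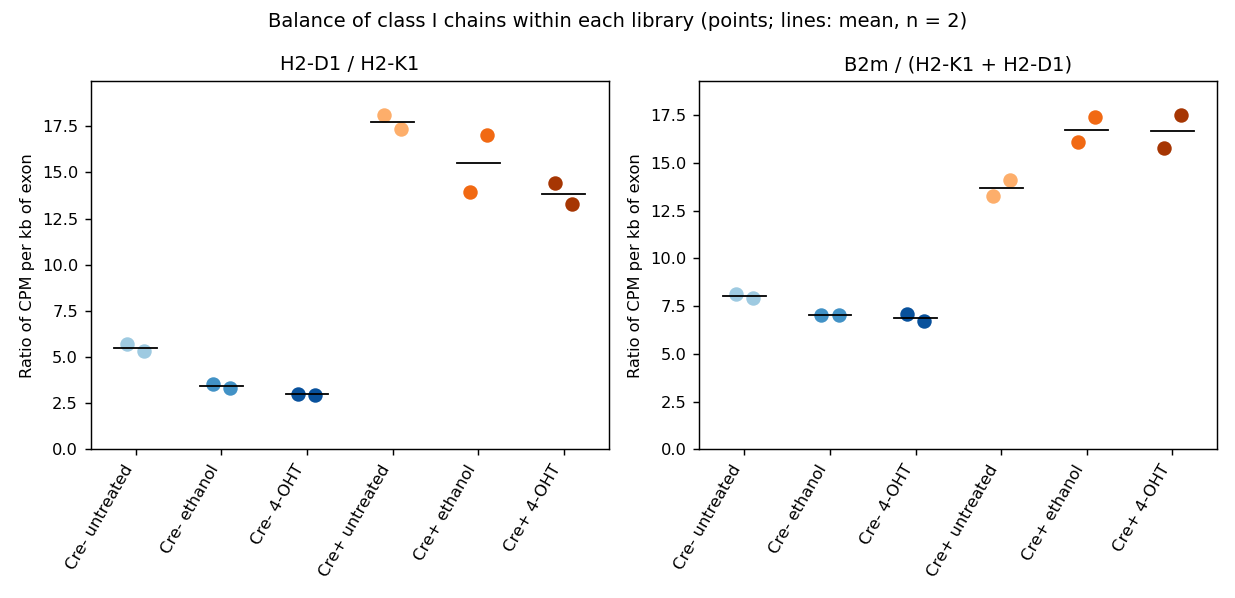
Ratios of class I chains in each library. The y axes are ratios of CPM per kb of exonic sequence. Points are libraries and short lines are group means, and the H2-D1 to H2-K1 ratio was 2.95 to 5.69 in Cre-negative and 13.3 to 18.1 in Cre-positive libraries.

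Tap1 and Tap2 form the transporter that moves peptides into the endoplasmic reticulum, and both were near the bottom of the measured range. Tap1 (chromosome 17, 34187553 to 34197225, plus strand) was at 0.485 and 0.789 CPM in untreated Cre-negative libraries, 3.76 and 3.93 with ethanol and 4.24 and 3.37 with 4-OHT. In Cre-positive libraries it was at 0.354 and 0.295 CPM untreated, 0.553 and 0.503 with ethanol and 1.39 and 1.53 with 4-OHT. The 4-OHT libraries of Cre-positive cells stood above all other Cre-positive ones, while ethanol and 4-OHT overlapped in Cre-negative cells. Between ethanol and 4-OHT, 67.4% of all tested genes did not overlap in Cre-positive cells and 51% in Cre-negative cells.

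Tap2 (chromosome 17, 34203527 to 34216321, plus strand) rested on 5 to 32 counts per library. It was at 0.308 and 0.215 CPM in untreated Cre-negative libraries, 1.16 and 1.09 with ethanol and 0.751 and 0.694 with 4-OHT. Cre-positive values were 0.236 and 0.246 CPM untreated, 0.516 and 0.302 with ethanol and 0.425 and 0.732 with 4-OHT. Ethanol and 4-OHT libraries overlapped in Cre-positive cells.

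Tapbp codes for tapasin, the bridge between the transporter and empty class I molecules. Tapbp (chromosome 17, 33915899 to 33929292, plus strand) was at 72.1 and 74.2 CPM in untreated Cre-negative libraries, 81.7 and 86.9 with ethanol and 107.8 and 99.2 with 4-OHT. In Cre-positive libraries it was at 73.0 and 70.6 CPM untreated, 73.2 and 78.5 with ethanol and 99.8 and 104.9 with 4-OHT. The genotypes overlapped in the untreated and in the 4-OHT groups, unlike those of the chains, and 4-OHT libraries were the highest in each. Zbtb22, which overlaps Tapbp on the same strand, was at 27.6 to 33.1 CPM, and 1.1% of the 75-base windows of Tapbp occur in other genes.

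The immunoproteasome subunits were measured unevenly. Psmb8 (chromosome 17, 34197721 to 34201454, plus strand) and Psmb9 (chromosome 17, 34181987 to 34187764, minus strand), which replace the constitutive catalytic subunits Psmb5 and Psmb6, had 30 and 18 counts in all over 12 libraries. Psmb8 had 0 and 0 counts in untreated Cre-negative libraries, 1 and 4 with ethanol and 1 and 5 with 4-OHT, and in Cre-positive libraries 1 and 3 untreated, 4 and 0 with ethanol and 5 and 6 with 4-OHT. Psmb9 had 1 and 1, 1 and 3, and 5 and 3 counts in Cre-negative libraries, and 1 and 1, 0 and 0, and 0 and 2 in Cre-positive ones, in the same order of treatments. A library with a count of 0 allows a level of up to 3 counts, which is 0.0849 to 0.147 CPM across the libraries (counting error only). No difference in either gene was detectable at this depth. The start of Psmb9 overlaps that of Tap1 on the opposite strand, and whether reads were counted by strand is not stated in these sources.

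Psmb10 (chromosome 8, 105935735 to 105938444, minus strand), which replaces Psmb7, was expressed throughout. It was at 15.5 and 17.2 CPM in untreated Cre-negative libraries, 17.2 and 17.5 with ethanol and 19.5 and 19.9 with 4-OHT, and at 15.6 and 15.4, 15.4 and 13.01, and 16.98 and 18.3 in Cre-positive libraries. Its group means differed by 1.39-fold at most. On a scale per length of exonic sequence, the constitutive subunit means were 61.0 to 71.3 CPM per kb for Psmb5, 73.4 to 88.3 for Psmb6 and 31.1 to 36.6 for Psmb7. Against these, Psmb10 was at 8.32 to 11.6 CPM per kb, Psmb8 at no more than 0.0505 and Psmb9 at no more than 0.0437. Of the 3 exchanged subunits, Psmb10 alone was within 10 times of its constitutive partner.

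Nlrc5 (chromosome 8, 94434356 to 94527272, plus strand), the transactivator, had the widest range of the tested members, 28.2-fold over group means. It was at 2.95 and 3.76 CPM in untreated Cre-negative libraries, 9.62 and 9.27 with ethanol and 8.30 and 8.92 with 4-OHT. In Cre-positive libraries it was at 0.275 and 0.393 CPM untreated, 0.553 and 0.369 with ethanol and 1.16 and 0.866 with 4-OHT, which is 7 to 41 counts. The highest Cre-positive library was below the lowest Cre-negative one, and how many genes had such a gap over all 12 libraries was not counted. Between single groups of 2 libraries, 72.7% of all tested genes did not overlap between untreated genotypes and 79.6% with 4-OHT. 9330175E14Rik, a non-coding gene that overlaps the first part of Nlrc5 on the opposite strand, was at no more than 0.0999 CPM in Cre-positive and 0.574 CPM in Cre-negative libraries.

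Per kb of exonic sequence, group means ordered the tested members in the same way at the top in every group: B2m (386 to 919 CPM per kb), then H2-D1 (25.7 to 99.7). H2-K1 came next in Cre-negative 4-OHT and ethanol cells (33.5 and 25.5 CPM per kb) and below Tapbp and Psmb10 in every Cre-positive group (1.51 to 2.23). Tapbp was at 19.8 to 28.5 CPM per kb. Nlrc5, Tap1 and Tap2 were lowest, at 0.0394 to 1.112, 0.0592 to 0.703 and 0.0637 to 0.299 CPM per kb.

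**Figure D3:**
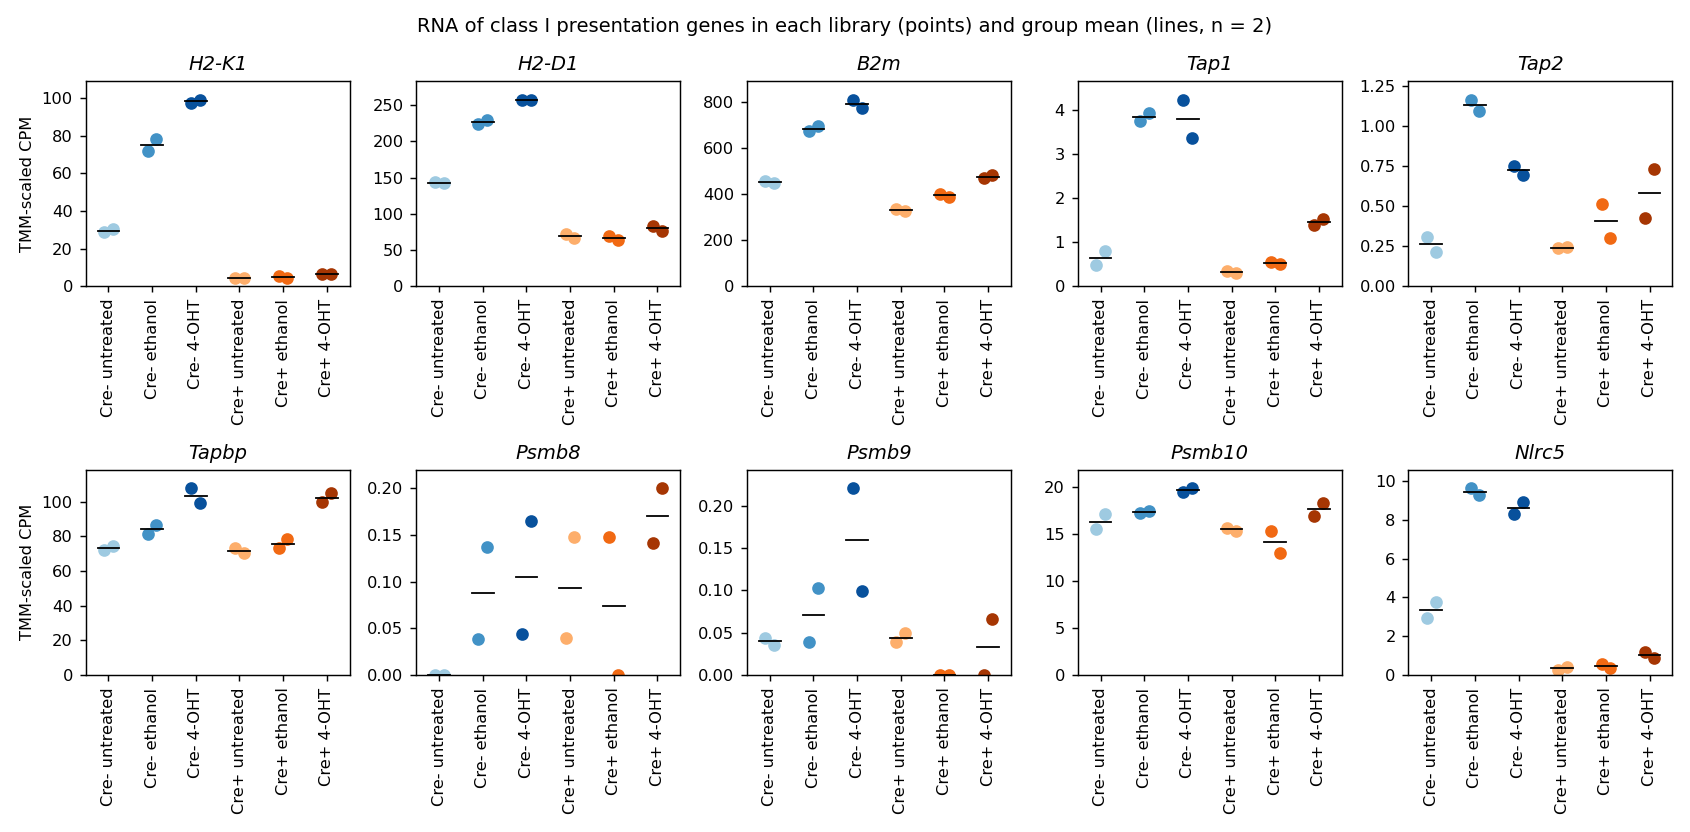
CPM of each of the 10 members in every library, on linear axes from 0, by genotype and treatment. Points are libraries and lines are group means (n = 2). H2-K1 and Nlrc5 are lower in all 6 Cre-positive libraries than in any Cre-negative one, and Psmb8 and Psmb9 rest on 6 counts or fewer.

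In Cre-positive cells, 4-OHT for 5 days went with higher RNA of 7 of the 8 tested members than ethanol did, and with lower RNA of none. Over all 17609 genes, 21.1% were called higher and 17.2% lower in this contrast, at an adjusted p under 0.05 in edgeR's quasi-likelihood test. The members' median log2 change was 0.42, against 0.03 over all tested genes. Tap1 rose by a log2 change of 1.46 (SE 0.277, adjusted p = 0.000279) and Nlrc5 by 1.16 (SE 0.309, adjusted p = 0.00531). The chain genes moved less: H2-K1 rose by 0.42 (SE 0.119, adjusted p = 0.00875), H2-D1 by 0.27 (SE 0.0517, adjusted p = 0.000292) and B2m by 0.27 (SE 0.0379, adjusted p = 9.52e-06). Tapbp rose by 0.43 (SE 0.0495, adjusted p = 7.6e-07) and Psmb10 by 0.32 (SE 0.0835, adjusted p = 0.00479), while Tap2 had a change of 0.49 with a 95% interval of -0.33 to 1.30 (adjusted p = 0.348). The calls of B2m, H2-D1, Tap1 and Tapbp held under every alternative run. Without ethanol library 4, H2-K1 was at 0.21 (adjusted p = 0.255), Nlrc5 at 0.88 (adjusted p = 0.086) and Psmb10 at 0.20 (adjusted p = 0.128), and the members' count was 4 and their median 0.23. Nlrc5 also lost its call without 4-OHT library 11 (0.92, adjusted p = 0.084), and Psmb10 without 4-OHT library 12 (0.26, adjusted p = 0.0547).

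The same agent in Cre-negative cells, which have no recombinase to activate, went with higher RNA of 4 of the 8 tested members and lower RNA of none. Here 3.33% of all tested genes were called higher and 2.65% lower, and the members' median was 0.18 against 0.00 over all genes. H2-K1 rose by 0.39 (SE 0.0585, adjusted p = 0.000321), Tapbp by 0.29 (SE 0.0499, adjusted p = 0.00118), B2m by 0.21 (SE 0.0374, adjusted p = 0.00167) and H2-D1 by 0.18 (SE 0.0457, adjusted p = 0.0177). Tap1 (-0.03, 95% interval -0.37 to 0.30), Nlrc5 (-0.13, -0.37 to 0.12), Tap2 (-0.65, -1.31 to 0.02) and Psmb10 (0.18, 0.01 to 0.36) did not pass after adjustment. Of the 4 calls, that of H2-K1 held under every alternative. Without 4-OHT library 5, H2-D1 (0.17, adjusted p = 0.142), B2m (0.16, adjusted p = 0.0683) and Tapbp (0.22, adjusted p = 0.0559) lost theirs and the count was 1. H2-D1 was also lost without library 6, 9 or 10 (adjusted p = 0.0968, 0.16 and 0.0913) and B2m without library 9 (adjusted p = 0.0505).

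The difference of the 4-OHT effects between genotypes separated the members. It passed for Tap1, at 1.49 (SE 0.324, adjusted p = 0.00156), and for Nlrc5, at 1.29 (SE 0.331, adjusted p = 0.00575), both larger in Cre-positive cells. Over all genes 14.5% had a difference called in that direction and 13.8% in the other, so 2 of 8 members is near the background. The Tap1 difference held under every alternative, and that of Nlrc5 was 1.013 (adjusted p = 0.0687) without ethanol library 4 and 1.05 (adjusted p = 0.0694) without 4-OHT library 11. H2-K1 had a difference of 0.02 (95% interval -0.25 to 0.30), H2-D1 of 0.09 (-0.06 to 0.23) and B2m of 0.06 (-0.05 to 0.17). Leaving out 1 library moved the H2-K1 difference between -0.18 (without ethanol library 4) and 0.23 (without ethanol library 3). For Tapbp the difference was 0.14 (-0.01 to 0.28), for Psmb10 0.13 (-0.11 to 0.38) and for Tap2 1.13 (0.08 to 2.18, adjusted p = 0.1).

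**Figure D4:**
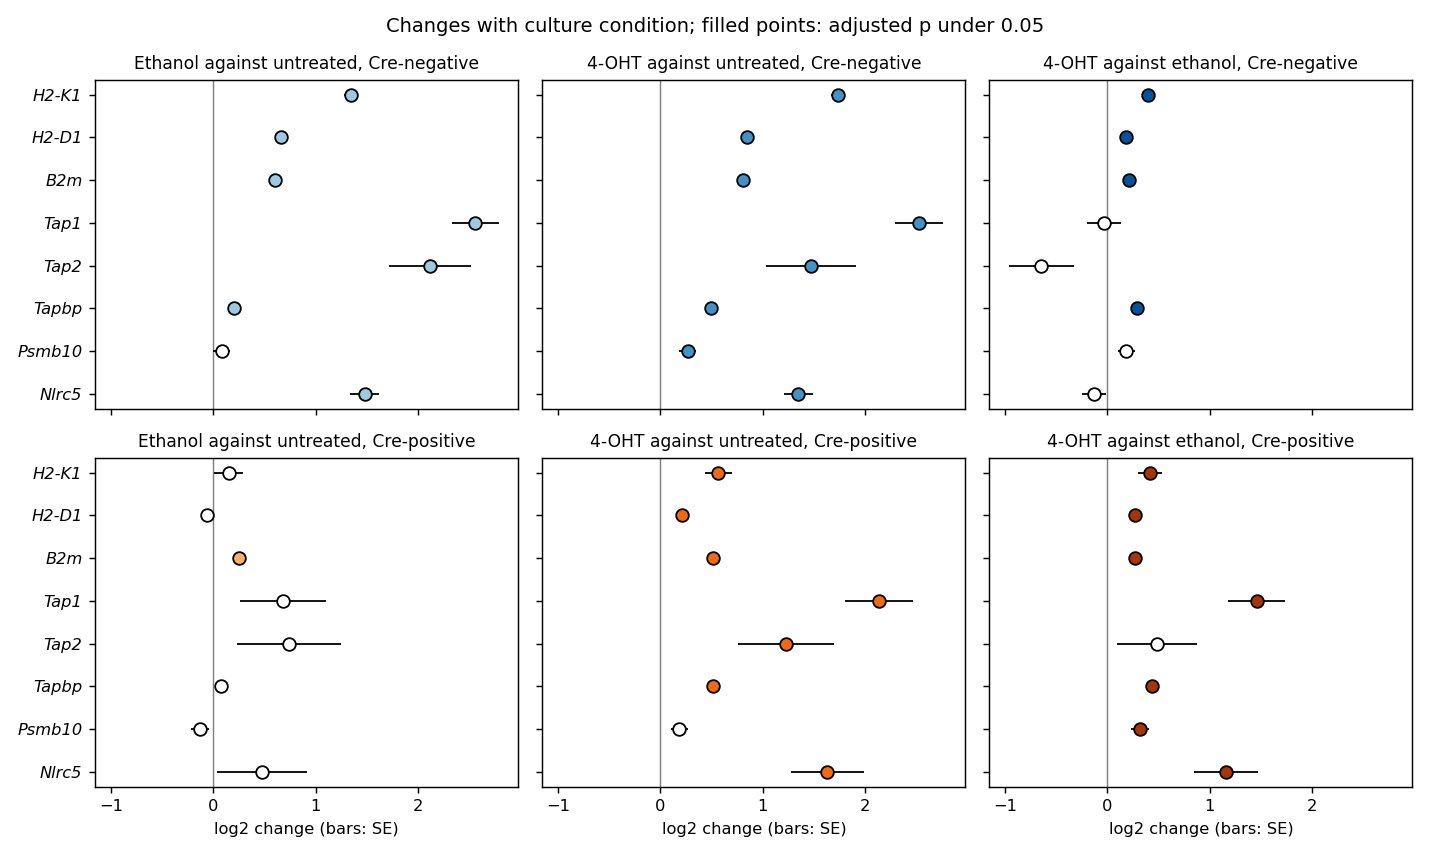
Log2 changes of the 8 tested members in the comparisons of treatments within each genotype, from the edgeR fit to all 12 libraries. Bars are standard errors and filled points have an adjusted p under 0.05. The chain genes lie near the same value in both genotypes for 4-OHT against ethanol, and far apart between genotypes for ethanol against untreated.

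The vehicle group of Cre-negative cells itself differed from untreated cells. In these cells, 7 of 8 tested members were higher with ethanol than untreated and none was lower (12.5% of all genes were called higher and 12% lower). Their median change was 1.00, against 0.00 over all tested genes. Tap1 rose by 2.56 (SE 0.232, adjusted p = 4.06e-08), Tap2 by 2.11 (SE 0.4, adjusted p = 0.000459), Nlrc5 by 1.48 (SE 0.138, adjusted p = 6.3e-08) and H2-K1 by 1.34 (SE 0.0656, adjusted p = 3.15e-12). H2-D1 rose by 0.66 (SE 0.0472) and B2m by 0.60 (SE 0.0379), with adjusted p = 1.01e-09 and 1.55e-10. Tapbp rose by 0.20 (adjusted p = 0.00555), a call lost without ethanol library 10 (0.16, adjusted p = 0.0897), and Psmb10 had 0.08 (95% interval -0.10 to 0.26). The labels give no time for untreated cultures, so the vehicle and the time in culture cannot be told apart.

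In Cre-positive cells, B2m alone among the 8 passed the test of ethanol against untreated, at 0.25 (SE 0.0384, adjusted p = 0.00014), and 8.11% of all genes were called higher and 6.84% lower. H2-K1 had a change of 0.15 (95% interval -0.14 to 0.44), H2-D1 of -0.06 (-0.17 to 0.05), Tap1 of 0.68 (-0.20 to 1.55), Tap2 of 0.74 (-0.32 to 1.80) and Nlrc5 of 0.47 (-0.44 to 1.38). A test of the difference between the genotypes' ethanol effects, added after these values were seen, passed for 4 members, all smaller in Cre-positive cells (7.98% of all genes were called in that direction and 8.32% in the other). It gave -1.19 for H2-K1 (SE 0.157, adjusted p = 2.42e-05), -0.72 for H2-D1 (SE 0.0717, adjusted p = 7.43e-07), -0.35 for B2m (SE 0.0539, adjusted p = 0.000127) and -1.88 for Tap1 (SE 0.53, adjusted p = 0.0185). The Tap1 difference was lost without untreated Cre-positive library 7 (-1.74, adjusted p = 0.152). Nlrc5 had a difference of -1.004 (95% interval -2.02 to 0.01, adjusted p = 0.18).

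Set against untreated cells, 4-OHT went with higher RNA of all 8 tested members in Cre-negative cells (10.1% of all genes were called higher and 9.14% lower) and of 7 in Cre-positive cells (21% higher and 18.2% lower). These contrasts share the 4-OHT libraries with those above. In Cre-negative cells the changes were 2.52 for Tap1 (SE 0.235), 1.73 for H2-K1 (SE 0.0648), 1.35 for Nlrc5 (SE 0.141), 0.85 for H2-D1 (SE 0.0471) and 0.81 for B2m (SE 0.0379), with adjusted p from 4.32e-14 for H2-K1 to 3.66e-07 for Nlrc5. Psmb10 (0.27, adjusted p = 0.0295) lost its call with DESeq2 (adjusted p = 0.096) and without library 1, 5 or 6. The call of Tap2 (1.47, adjusted p = 0.0219) was lost without library 1, 2, 5 or 6, and DESeq2 gave no adjusted p for Tap2 here. In Cre-positive cells the changes were 2.14 for Tap1 (SE 0.331, adjusted p = 2.46e-05), 1.63 for Nlrc5 (SE 0.358, adjusted p = 0.00097) and 0.57 for H2-K1 (SE 0.129, adjusted p = 0.00134). B2m changed by 0.52 (SE 0.0383, adjusted p = 1.03e-09) and H2-D1 by 0.21 (SE 0.0527, adjusted p = 0.00303). The H2-D1 call was lost without library 8 (0.13, adjusted p = 0.103) or 11 (0.15, adjusted p = 0.0825), and that of Tap2 (1.23, adjusted p = 0.0416) with DESeq2 (adjusted p = 0.146) and in most fits that left out a library. Tapbp had nearly equal changes in the genotypes, 0.50 and 0.51, with a difference of 0.01 (95% interval -0.14 to 0.16).

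Measured against untreated cells, the 4-OHT effect on the chains was smaller in Cre-positive cells. The difference was -1.16 for H2-K1 (SE 0.15, adjusted p = 8.03e-06), -0.64 for H2-D1 (SE 0.0707, adjusted p = 1.28e-06) and -0.29 for B2m (SE 0.0537, adjusted p = 0.000394), with 11.7% of all genes called smaller and 12% larger in Cre-positive cells. No other member passed: Tap1 was at -0.39 (95% interval -1.39 to 0.62) and Nlrc5 at 0.28 (-0.55 to 1.113). The larger Tap1 and Nlrc5 response of Cre-positive cells was thus called against ethanol and not against untreated cells.

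The genotypes differed before any treatment. Untreated Cre-positive cells had lower RNA of 4 of the 8 tested members than untreated Cre-negative cells and higher RNA of none, where 24.6% of all genes were called lower and 24.4% higher. Nlrc5 was lower by a log2 difference of -3.35 (SE 0.285, adjusted p = 1.94e-09), H2-K1 by -2.74 (SE 0.103, adjusted p = 1.49e-15), H2-D1 by -1.05 (SE 0.0517, adjusted p = 1.84e-13) and B2m by -0.44 (SE 0.0384, adjusted p = 2.55e-09). Tap1 had -0.98 (SE 0.41, adjusted p = 0.053) and passed without library 1 (-1.25, adjusted p = 0.0268). With 4-OHT the differences were -3.90 for H2-K1 (SE 0.0781), -3.07 for Nlrc5 (SE 0.168), -1.69 for H2-D1 (SE 0.0485), -1.37 for Tap1 (SE 0.187) and -0.73 for B2m (SE 0.0377), all 5 passing with adjusted p of 1.64e-06 or less, in a contrast where 30.2% of all genes were called lower and 30.5% higher. Tapbp did not differ by more than 0.14 in the untreated cells (-0.03, 95% interval -0.14 to 0.08) or 0.12 with 4-OHT (-0.01, -0.12 to 0.09). Each of the 9 calls held under every alternative run. In Cre-positive cells the H2-K1 change with 4-OHT, 0.42 against ethanol, was small beside the -2.74 that separated the untreated genotypes.

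The other class I and class I-like heavy chains were mostly at or near 0. Of 27 listed genes, 23 are in the table and 9 passed the filter. With 4-OHT against ethanol in Cre-positive cells 5 of the 9 rose and 1 fell, with a median of 0.34, beside 21.1% of all genes higher and 17.2% lower. H2-Q4, a class Ib chain of the Qa region, rose by 1.21 (SE 0.236, adjusted p = 0.00037), from 1.25 and 0.704 CPM to 2.09 and 2.40. In Cre-negative cells H2-Q4 was at 0.661 and 0.932 CPM untreated, 3.03 and 3.52 with ethanol and 4.86 and 5.32 with 4-OHT. H2-T22, a ligand of gamma delta T cells, rose by 0.57 in Cre-positive cells (SE 0.0548, adjusted p = 8.04e-08), with an uncertain share of reads, since 18.5% of its 75-base windows occur in other genes. Fcgrt, the heavy chain of the neonatal Fc receptor, rose by 0.40 (adjusted p = 3.75e-05), and Procr, the endothelial protein C receptor, by 0.74 (adjusted p = 0.000106). H2-T23, the Qa-1 chain, had a change of 0.34 that did not pass (adjusted p = 0.146). For H2-Q4 the ethanol effect was smaller in Cre-positive cells, by -1.76 (SE 0.416, adjusted p = 0.00602), and the untreated genotypes had a difference of -0.00 (SE 0.333, adjusted p = 0.998).

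Of 12 genes for peptide loading and trimming in the endoplasmic reticulum, with a median of -0.02, 2 rose and 1 fell with 4-OHT against ethanol in Cre-positive cells. These counts are near the share of all genes called (21.1% higher, 17.2% lower). The 2 were the chaperone Calr (0.26, adjusted p = 4.02e-05) and the disulphide isomerase Pdia3 (0.21, adjusted p = 7.2e-05), both of the peptide loading complex, and Ganab, which trims N-glycans, fell (-0.12, adjusted p = 0.0167). Of 24 tested proteasome core and activator genes, 11 rose and 2 fell, with a median of 0.13, beside the same 21.1% and 17.2% of all genes. Among them, Psmb6 rose by 0.26 (adjusted p = 3.3e-05), Psma2 by 0.23 (adjusted p = 6.9e-05), Psmb1 by 0.22 (adjusted p = 9.04e-05) and Psmb5 by 0.21 (adjusted p = 0.00354), while Psmb7 had 0.05 (adjusted p = 0.379). The interferon-inducible activator subunits Psme1 and Psme2 had 0.13 (adjusted p = 0.0648) and 0.40 (adjusted p = 0.0209), and Psme3, a nuclear activator, fell by 0.41 (adjusted p = 4.84e-06). Cytosolic peptidases, which cut peptides in the cytosol, went mostly the other way: 1 of 8 rose and 5 fell, with a median of -0.12, where 17.2% of all genes fell. Thop1 fell by 0.56 (SE 0.0483, adjusted p = 1.59e-08), Nrd1 by 0.35 (adjusted p = 1.22e-06), Blmh by 0.16 (adjusted p = 0.0136) and Nln by 0.13 (adjusted p = 0.0158). Thop1 was at 114 and 108 CPM with ethanol and 76.6 and 73.5 with 4-OHT, and its fall differed from the change in Cre-negative cells by -0.57 (SE 0.0664, adjusted p = 2.24e-06). In Cre-negative cells 0 of the 8 peptidases passed in either direction, in a contrast where 3.33% of all genes were called higher and 2.65% lower.

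Among 21 tested transcription factors of the class I genes, 7 rose and 2 fell with 4-OHT against ethanol in Cre-positive cells, with a median of 0.03 that equals that of all genes, and beside 21.1% of all genes higher and 17.2% lower. Irf9, the DNA-binding part of the interferon-activated complex ISGF3, rose by 0.74 (SE 0.0656, adjusted p = 2.25e-08). Its values were 34.8 and 28.7 CPM with ethanol and 52.4 and 53.7 with 4-OHT. Irf1, an interferon-induced activator of class I genes, rose by 0.20 (SE 0.0762, adjusted p = 0.0474). Stat3 rose by 0.27 (adjusted p = 6.04e-06), Suz12, a subunit of the PRC2 repressor, fell by 0.30 (adjusted p = 1.25e-05), and Rfx5, the DNA-binding partner of Nlrc5, had a change of -0.05 (SE 0.0915, adjusted p = 0.721). In the difference between genotypes, Irf9 passed at 0.62 (SE 0.0902, adjusted p = 2.82e-05).

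With ethanol against untreated in Cre-negative cells, 7 of the 21 factors rose and 2 fell, where 12.5% of all genes rose and 12% fell. Irf9 went from 19.7 and 18.2 to 58.8 and 58.5 CPM, a change of 1.63 (SE 0.0721, adjusted p = 6.5e-13). In Cre-positive cells Irf9 rose by 0.50 (adjusted p = 0.000115), and the difference between genotypes was -1.13 (SE 0.106, adjusted p = 3.01e-07). Between the untreated genotypes 8 of the 21 factors were higher in Cre-positive cells and 4 lower, beside 24.4% of all genes higher and 24.6% lower. Irf9 and Irf1 were among those higher, where Nlrc5 and H2-K1 were lower. Irf9 had a difference of 0.24 (adjusted p = 0.0184) and Irf1 of 0.32 (adjusted p = 0.00263). Rfx5 was lower by -0.25 (adjusted p = 0.0317).

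Of 24 interferon and TNF ligand and receptor genes, 12 passed the filter, and 6 of these rose and 2 fell with 4-OHT against ethanol in Cre-positive cells (median 0.17), beside 21.1% of all genes higher and 17.2% lower. The kinase Jak1 rose by 0.39 (SE 0.0344, adjusted p = 2.19e-08), the interferon gamma receptor chain Ifngr1 by 0.32 (adjusted p = 4.6e-06), the feedback inhibitor Socs3 by 0.38 (adjusted p = 4.29e-05) and the TNF receptor Tnfrsf1a by 0.24 (adjusted p = 0.00116). Ifnb1 had 3 counts over all 12 libraries, at most 1 in a library, and Ifng had 0 in each, which allows up to 0.147 CPM in the shallowest library. In the same contrast in Cre-negative cells, 0 of the 12 rose and 1 fell, near the 3.33% and 2.65% of all genes.

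**Figure D5:**
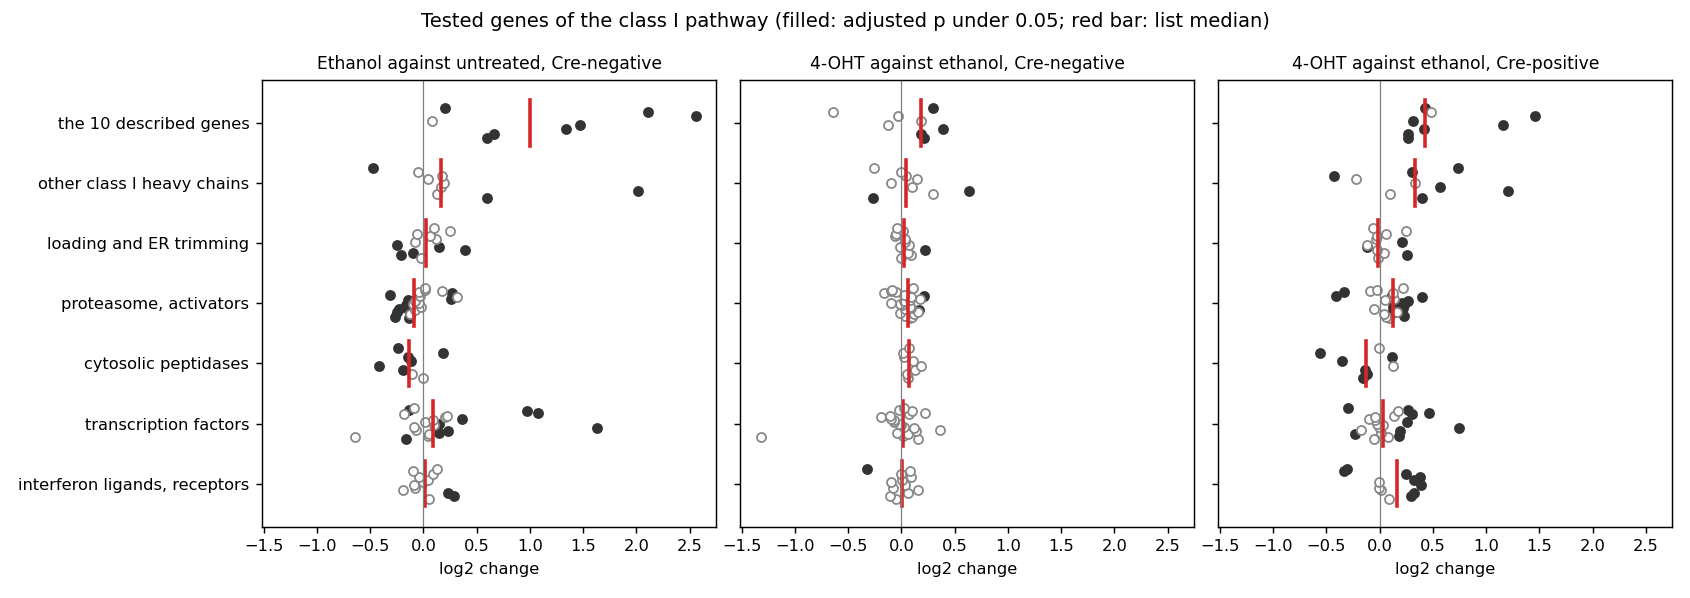
Log2 changes of every tested gene of the 10 described genes and the related lists in 3 comparisons. Points are genes, filled where the adjusted p is under 0.05, and red bars are list medians. The median of the described genes is 1.00, 0.18 and 0.42 from left to right, and the cytosolic peptidases lie mostly below 0 in the left and right panels.

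Genes with patterns most like the members' were ranked by the Pearson correlation over the 6 group means with the members' mean profile, among 10776 candidates. The closest were Ifi204 (r = 0.992), an interferon-inducible PYHIN protein, Nmi (0.991), an interferon-inducible protein, Lgr4 (0.990), a receptor for R-spondins, Zfp445 (0.988), Eif3c (0.986), a translation initiation factor subunit, and Phf11d (0.985). They were picked for likeness, so their levels are a description: Ifi204 was at 29.1, 50.9 and 56.9 CPM in untreated, ethanol and 4-OHT Cre-negative cells and at 17.3, 17.6 and 28.0 in Cre-positive cells. Phf11d spanned 0.413 to 9.05 CPM and Zfp445 61.6 to 73.6 CPM, so a high r covered ranges of very different size.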

How the data were processed

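Per the labels' protocols, total RNA (RNeasy Plus) was depleted of ribosomal RNA and made into strand-marked TruSeq libraries, read as pairs of 75 bases. The authors deposited expected counts, 1 whole number per gene symbol and library, and the submitters' processing notes list cutadapt 1.11, STAR 2.5.2a, RSEM 1.2.30, edgeR and the GRCm38 build. Nothing in the sources used here gives the annotation, strand setting or rounding. The fit used edgeR 4.0.16 under R 4.3.3: filterByExpr selected genes (minimum count 10, 17609 genes), libraries scaled by TMM (factors 0.972 to 1.02), and a quasi-likelihood model with 1 mean per group fitted to all 12 libraries. Tests were 2-sided, with Benjamini-Hochberg adjustment over all tested genes, at a threshold of 0.05. The standard errors and 95% intervals come from the F statistic. The common dispersion was 0.00119, with 6 residual and 14.6 prior degrees of freedom. Libraries of a group differed by more than sampling noise (chi-square per degree of freedom 2.37 to 4.60), so none was taken for a duplicate of another, which does not show that they were separate cultures. Code was tested on simulated counts.

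There were 10 planned comparisons and 1 added after its values were seen. Alternatives were DESeq2 1.42.0, relative log expression size factors, no filter, only the compared groups' libraries, and leaving out each library. The members and gene lists were chosen with earlier results of these data known, and so were the motif letters. Named genes were all members, the targets, from each list up to 4 genes with the smallest p that passed 4-OHT against ethanol in Cre-positive cells (otherwise the 1 with the smallest p), and a few pathway genes listed by name. Likeness was computed on log2 CPM with a pseudocount of 0.5. Coordinates and exonic lengths are from GENCODE M21 (GRCm38), and promoters from RefSeq (GRCm38.p6), where 8 of 10 members matched. Results for some genes of the lists are not reported here.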

Additional observations from a re-analysis of the deposited data

Results flagged for a closer look

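Several members had effects that differed between the genotypes by a test of the difference itself, with edgeR's quasi-likelihood test and n = 2 libraries per group. For 4-OHT against ethanol the log2 change was larger in Cre-positive than in Cre-negative cells by 1.49 for Tap1 and by 1.29 for Nlrc5. For 4-OHT against untreated cells the difference was -1.16 for H2-K1, -0.64 for H2-D1 and -0.29 for B2m. For ethanol against untreated cells, a comparison added after its values were seen, it was -1.19 for H2-K1, -0.72 for H2-D1, -0.35 for B2m and -1.88 for Tap1. The last 2 sets share the untreated libraries of both genotypes. The 4-OHT against ethanol set shares its 4-OHT libraries with the 4-OHT against untreated set. It shares its ethanol libraries with the ethanol against untreated set, where they enter with the opposite sign. These sets are thus not separate findings, since each difference follows from the others. For Tap1, 1.49 and -1.88 both carry the level in Cre-negative ethanol cells (mean 3.85 CPM).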

How the results depend on the processing

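No called change of a member reversed under the alternatives run. An alternative that gave no adjusted p for a member was not counted as a lost call. Of the 52 calls of members over the 11 comparisons, 39 held under every alternative, and the other 13 are named in the report. With the compared groups' libraries alone, 1609 genes were called for 4-OHT against ethanol in Cre-negative cells, against 1054 in the fit to all 12 libraries. Leaving out each library in turn gave 301 to 1277 genes in that comparison, 2164 to 3673 for 4-OHT against untreated in Cre-negative cells, 2759 to 4531 and 1423 to 2619 for ethanol against untreated in Cre-negative and Cre-positive cells, and 1792 to 3077 for the difference of the ethanol effects. The members called ranged from 4 to 7 for 4-OHT against ethanol in Cre-positive cells, from 1 to 4 in Cre-negative cells, and from 1 to 2 for the difference of these effects. Where leaving out a library left a group with 1, that library was taken to vary like the other groups. No paired analysis was run, because the labels do not say whether libraries of different groups came from the same cultures. Library numbers only run from 1 to 12 and do not tell of any pairing. Depth limits Psmb8, Psmb9, Tap2 and, in Cre-positive cells, Nlrc5, which rested on few counts.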
